A study of Mus musculus with 6 samples.

Results

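The genes described are 9 that encode proteins of neutrophil granules, taken by symbol from a table of 55401 mouse genes. They were chosen by name, with earlier results of these data known: 5 of secondary and tertiary granules (Ngp, Camp, Ltf, Lcn2 and Mmp8) and 4 of primary granules (Elane, Mpo, Prtn3 and Ctsg). All 9 were matched to an identifier, and all 9 are accounted for. RNA-seq counts came from 6 libraries labelled as blood basophils of wild-type mice, 3 in set B and 3 in set A, and no other property separates the sets in the labels. The protocol describes mice given MC903, a vitamin D analogue that induces skin inflammation resembling atopic dermatitis, on both ears (2 nmol in 10 µL of ethanol, day 0 to day 6), and control mice given ethanol alone. The labels do not tell which letter stands for MC903, so differences are given as B over A without a treatment. The sort kept live CD45+ cells without lineage markers that carried CD49b and FcεRIα or IgE. No label ties a library to an animal or pool, and the protocol speaks of pooled RNA. The p-values therefore rest on variation among libraries whose origin is unknown and which may be technical repeats.

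Neutrophils fill their granules in order as they mature in the bone marrow. Primary (azurophil) granules form in promyelocytes and hold myeloperoxidase and serine proteases. Secondary (specific) granules form in myelocytes and metamyelocytes and hold lactoferrin, lipocalin and cathelicidin, and gelatinase-rich tertiary granules form last. The proteins stay in the cell, while the transcripts of each class are made mainly at its own stage and decline afterwards. In mice the transcription factor C/EBP-epsilon is required for the secondary granule genes.

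Total counts were 46137963 to 63956911 per library, well over the yield of reads named in the protocol. The labels were checked against the markers of basophils first: Fcer1a, which encodes the IgE-binding chain used in the sort, had 10736, 5584 and 2681 counts in B replicates 1, 2 and 3, against 4, 0 and 0 counts in the A libraries. Cd200r3, Mcpt8, Prss34 and Cpa3 were likewise at 1.28 CPM or less in every A library. The other 4 of the 9 listed basophil markers did not separate the sets so: Hdc was at 685, 467 and 359 CPM in B, against 38.0, 62.2 and 267 CPM in A, and Ms4a2, Cyp11a1 and Gata2 overlapped. Gata2 ran the other way, at 42.8, 1.15 and 24.8 CPM in B, against 0.109, 45.6 and 116 CPM in A. For the gene of the sorted receptor the A libraries go against their label. The B libraries also held transcripts listed for other cell types. There the 5 listed B cell markers summed to 3555 to 4750 CPM, and the 9 listed basophil markers to 1473 to 3195 CPM. Neither set is read as pure basophils, and differences between the sets are not read as changes within basophils. The design text names ear skin and the sample labels name blood. The protocols name Smart-seq2, which reads whole transcripts, while the sample descriptions name 10x Genomics, whose usual libraries read transcript ends and count molecules. Neither conflict was resolved here, and levels per length assume reads along the whole transcript. In bulk libraries such as these, fewer cells of a type and less RNA per cell cannot be told apart. Transcripts listed as markers of mature neutrophils were found in every library: the summed level of 14 listed marker genes ranged over 13349 to 24267 CPM in the B libraries, against 2848 to 11294 CPM in the A libraries, where CPM is the count scaled to 1000000 counts per library. S100a8 and S100a9 made up most of these sums. In A replicate 1 Csf3r was at 0.308 CPM, Il1r2 at 0.435, Stfa2l1 at 0.0726 and Trem1 at 0. Of those 14, Ly6g, a surface antigen of mouse neutrophils, had 0 counts in all 6 libraries.

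Transcripts of the 5 secondary and tertiary granule genes were present in every library. Those of the 4 primary granule genes were at or near 0 in every library but B replicate 3. The 5 secondary and tertiary genes summed to 911, 477 and 709 CPM in B replicates 1, 2 and 3, against 148, 33.5 and 133 CPM in A replicates 1, 2 and 3. Every B library lay above every A library. The 4 primary genes summed to 0.241, 0 and 10.6 CPM in B, against 0, 0.0757 and 0 CPM in A. In raw counts this was 12, 0 and 679 in B, against 0, 4 and 0 in A.

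To set the classes side by side within a library, levels were divided by the length of each gene's merged exons, giving CPM per kb. The secondary and tertiary class then stood at 471, 243 and 484 CPM per kb in B, against 62.2, 15.1 and 52.5 CPM per kb in A. The primary class stood at 0.129, 0 and 3.10 CPM per kb in B, against 0, 0.0221 and 0 CPM per kb in A. Where the primary class had any count, the secondary and tertiary class was 3663 times higher in B replicate 1, 156 times higher in B replicate 3 and 682 times higher in A replicate 2, the last resting on 4 counts. Primary transcripts were at most 0.636% of the per-length level of both classes, in B replicate 3.

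**Figure D1:**
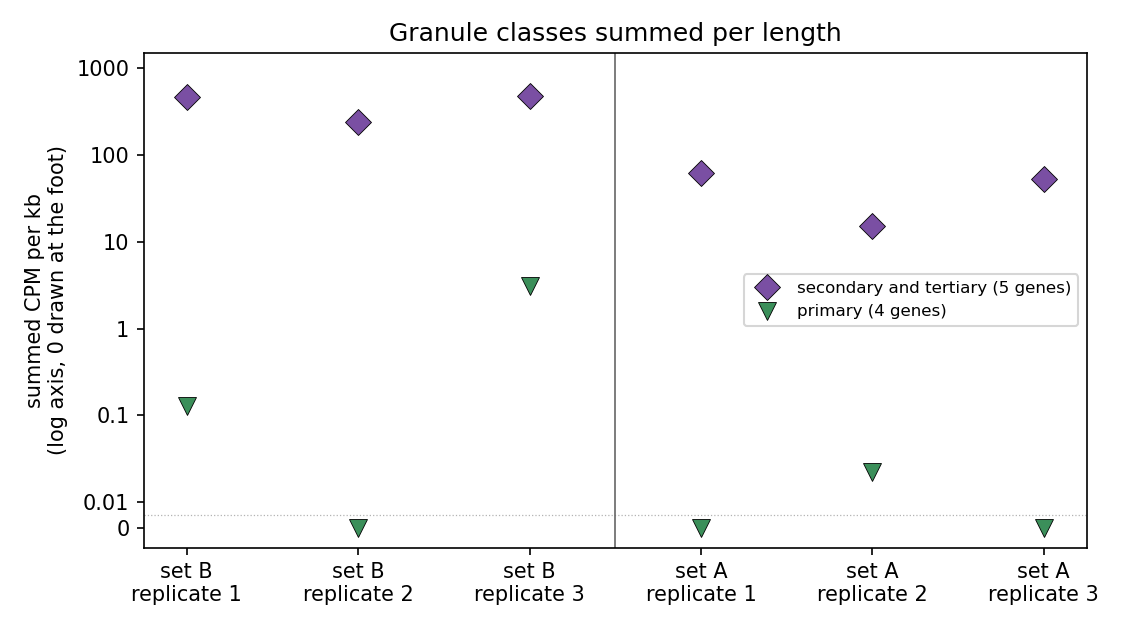
Summed CPM per kb of merged exons (log axis, with 0 drawn at the foot) for the 5 secondary and tertiary granule genes and the 4 primary granule genes, 1 point per library. The secondary and tertiary class lies at 15.1 CPM per kb or more in all 6 libraries, and the primary class exceeds 1 CPM per kb in B replicate 3 alone, at 3.10.

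The mean of the summed secondary and tertiary level was 699 ± 217 CPM in B (SD, n = 3), against 105 ± 62.3 CPM in A (SD, n = 3), a log2 ratio of 2.74. For the primary class the means were 3.62 ± 6.06 CPM in B (SD, n = 3), against 0.0252 ± 0.0437 CPM in A (SD, n = 3). Their log2 ratio of 7.16 sets 691 counts in B, of which 679 were in replicate 3, against 4 counts in A, and it was 2.26 without B replicate 3. No test was made of either sum. In the tests of single genes, edgeR's quasi-likelihood test over 9196 genes called 2 genes higher in B (0.0217%) and 0 lower at an adjusted p under 0.05, and neither was a granule gene of neutrophils. The 2 were Mcpt8 and Prss34, granule proteases of basophils.

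Of the 5 secondary and tertiary genes, all 5 passed the filter on low counts and 0 passed the threshold by edgeR. At an unadjusted p under 0.05, 3 of the 5 were higher in B, where 5.05% of all tested genes were higher and 1.32% lower. In 3 of the 5 every B library lay above every A library, where this held for 10.2% of all tested genes. Fitted values were above 0 for all 5, where 48% of all tested genes were above 0. The median fitted log2 difference of the 5 was 6.31, beside -0.06 over all genes tested. The 5 genes were not tested as a group, and they were chosen with earlier results of these data known.

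**Figure D2:**
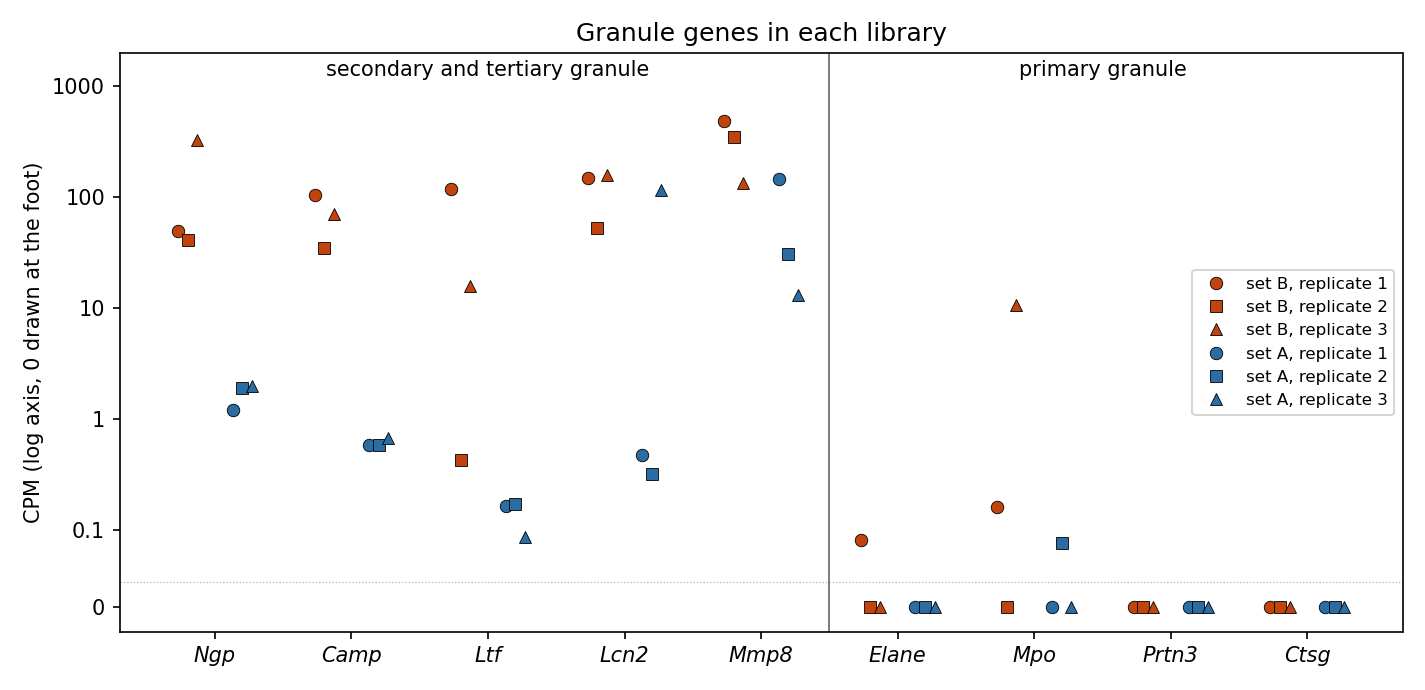
CPM of each of the 9 granule genes (log axis, with 0 drawn at the foot), 1 point per library, set B left of set A. Ngp, Camp and Ltf separate the sets, Lcn2 and Mmp8 overlap between them, and among primary granule genes Mpo alone exceeds 1 CPM, in B replicate 3.

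Ngp encodes neutrophilic granule protein, a secondary granule protein related to cystatins and cathelicidins. It was at 49.8, 40.8 and 329 CPM in B replicates 1, 2 and 3, against 1.22, 1.91 and 1.97 CPM in A replicates 1, 2 and 3. The sets did not overlap, and within B replicate 3 stood far above the other libraries. The fitted log2 difference was 6.31 (SE 1.45, adjusted p = 0.508 by edgeR), and it was 4.68 without B replicate 3.

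Camp encodes cathelicidin, the precursor of an antimicrobial peptide. It was at 104.6, 34.7 and 71.3 CPM in B, against 0.581, 0.586 and 0.672 CPM in A. The sets did not overlap, and the A libraries lay close together, with 32, 31 and 31 counts. The fitted log2 difference was 6.74 (SE 1.77, adjusted p = 0.508 by edgeR).

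Ltf encodes lactoferrin, an iron-binding protein of secondary granules. It was at 119, 0.423 and 15.9 CPM in B, against 0.163, 0.170 and 0.0867 CPM in A. The sets did not overlap, but B replicate 2, with 25 counts, was close to the A libraries, which had 9, 9 and 4. The fitted log2 difference was 8.18 (SE 2.83, adjusted p = 0.565 by edgeR), and it was 5.74 without B replicate 1.

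Lcn2 encodes lipocalin-2, which binds bacterial siderophores and so withholds iron. It was at 147.9, 52.6 and 159 CPM in B, against 0.472, 0.322 and 117 CPM in A. A replicate 3 lay within the range of the B libraries, while the other A libraries were below 0.5 CPM. The fitted log2 difference was 1.62 (SE 2.08, adjusted p = 1.00 by edgeR), and it was 8.08 without A replicate 3.

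Mmp8 encodes neutrophil collagenase, a metalloproteinase that cleaves fibrillar collagens. It was at 489.6, 348 and 134 CPM in B, against 146, 30.5 and 13.2 CPM in A. The ranges met, with A replicate 1 above B replicate 3. The fitted log2 difference was 2.16 (SE 1.03, adjusted p = 0.980 by edgeR), and it was 3.81 without A replicate 1.

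DESeq2 made 3 calls among the 5 genes where edgeR made none. It called 5.91% of 8314 genes higher in B and 1.25% lower: Ngp (adjusted p = 1.86e-06), Camp (adjusted p = 2.13e-06) and Ltf (adjusted p = 0.000195). DESeq2 did not call Mmp8 (adjusted p = 0.161) and gave no p for Lcn2. Limma-voom with sample quality weights called 0 of the 5, where it called 2.12% of 9196 genes higher in B and 0.0761% lower. A library value near 0 was common for genes at the mean level of Ngp, Camp, Ltf and Lcn2. For 5285 tested genes averaging 10 to 100 CPM, 28.0% of library values were under 1 CPM. For 408 genes averaging 300 to 1000 CPM, the share was 0.0817%. Mmp8, at a mean of 194 CPM over all libraries, lay between these ranges.

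**Figure D3:**
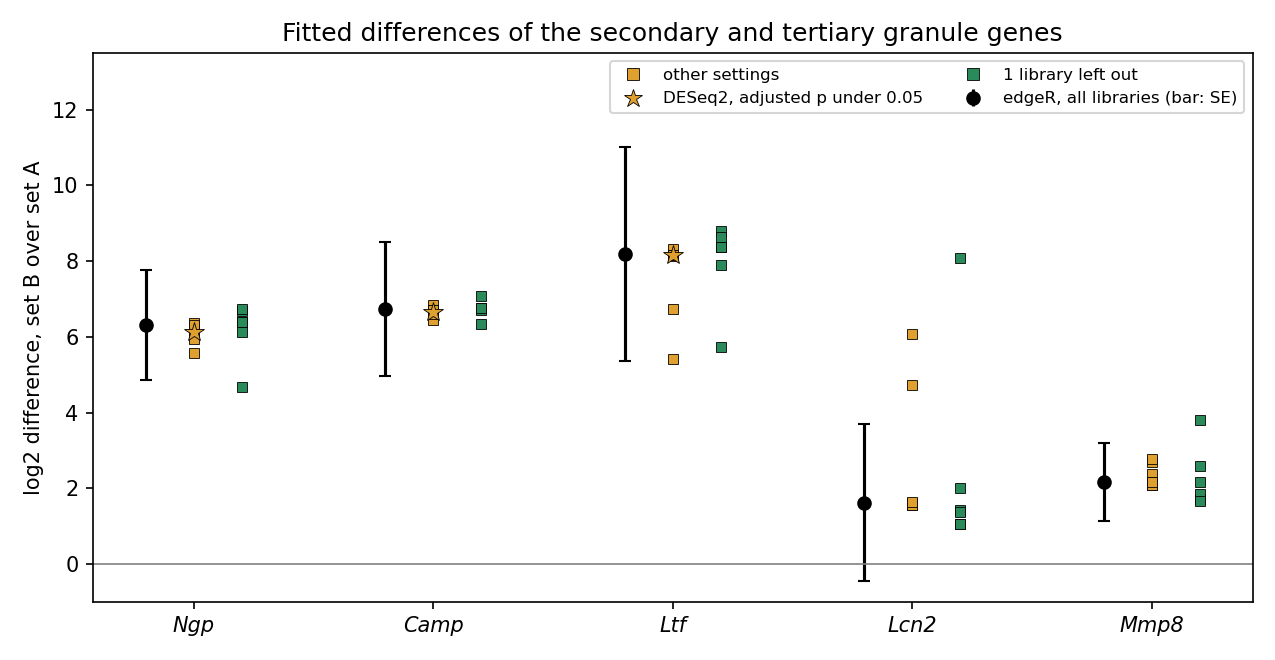
Fitted log2 difference of set B over set A for the 5 secondary and tertiary granule genes. The black points are edgeR on all 6 libraries with SE bars, the squares other settings or fits with 1 library left out, and the stars DESeq2 where its adjusted p was under 0.05. All fitted values lie above 0, and Lcn2 moves most, to 8.08 without A replicate 3.

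The order of the 5 genes by CPM per kb differed from library to library. In B replicate 1, Mmp8 led at 202 CPM per kb, followed by Camp at 138, Lcn2 at 56.4, Ngp at 40.7 and Ltf at 34.4. In B replicate 2, Mmp8 again led at 144 CPM per kb and Ltf was at 0.123, above only 17.6% of the genes detected there. Mmp8 did not lead throughout set B. In B replicate 3, Ngp led at 269.6 CPM per kb, above 98.0% of detected genes, and Mmp8 was at 55.2. The leading gene also differed within set A. In A replicate 1 Mmp8 was at 60.2 CPM per kb and each of the other 4 was under 1. In A replicate 3 Lcn2 led at 44.5 CPM per kb and Mmp8 was at 5.44. No single gene led in all libraries of either set.

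The low counts in A were compared with those of some of the listed basophil genes. Summed over the set, the A counts were 0.998% of the B counts for Ngp, 0.796% for Camp and 0.317% for Ltf, beside 26.3% for Lcn2 and 19.2% for Mmp8. These shares hung on single libraries. With 1 library left out the share ran from 0.609% (without A replicate 2) to 5.30% (without B replicate 3) for Ngp, from 0.525% (without A replicate 1) to 1.42% (without B replicate 1) for Camp, and from 0.187% (without A replicate 1) to 2.11% (without B replicate 1) for Ltf. It ran from 0.209% (without A replicate 3) to 51.9% (without B replicate 3) for Lcn2 and from 4.15% (without A replicate 1) to 35.2% (without B replicate 1) for Mmp8. The corresponding share over all libraries was 0.0975% for Mcpt8, 0.0918% for Prss34 and 0.130% for Cpa3, a carboxypeptidase of basophil and mast cell granules. It ran from 0.0510% to 0.273% for these 3 with 1 library left out. For Fcer1a the share was 0.0211%, and it ran from 0% to 0.0484%. No share was computed for the other listed basophil markers. Of these, Cd200r3 was at 0.109 CPM or less in A, while Hdc reached 267 CPM there, Ms4a2 11.9, Cyp11a1 80.0 and Gata2 116. The source of the few A counts was not tested.

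Sequence around the start sites is shown for the 3 genes whose sets did not overlap, Ngp, Camp and Ltf, and for Mpo, the primary granule gene with the most counts. The windows run from 250 bases before to 50 after the start (RefSeq, GRCm38.p6) and were searched on both strands for TTGCNNAA, the core of the site bound by C/EBP factors, which reads TTNNGCAA on the other strand. Matches are in capitals.
Ngp, chr9:110419558-110419857, plus strand: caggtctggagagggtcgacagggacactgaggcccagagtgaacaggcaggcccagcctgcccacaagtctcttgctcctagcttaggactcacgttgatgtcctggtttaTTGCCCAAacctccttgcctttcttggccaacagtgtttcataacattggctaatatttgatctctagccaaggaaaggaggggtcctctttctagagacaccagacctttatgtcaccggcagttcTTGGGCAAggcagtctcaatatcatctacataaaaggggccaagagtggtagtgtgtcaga
Camp, chr9:109849407-109849706, minus strand: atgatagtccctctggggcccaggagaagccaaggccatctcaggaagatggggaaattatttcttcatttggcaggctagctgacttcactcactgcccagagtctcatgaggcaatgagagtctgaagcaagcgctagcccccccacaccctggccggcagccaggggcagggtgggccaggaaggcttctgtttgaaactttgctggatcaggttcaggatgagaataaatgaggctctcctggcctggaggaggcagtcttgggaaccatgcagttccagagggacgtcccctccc
Ltf, chr9:111019042-111019341, plus strand: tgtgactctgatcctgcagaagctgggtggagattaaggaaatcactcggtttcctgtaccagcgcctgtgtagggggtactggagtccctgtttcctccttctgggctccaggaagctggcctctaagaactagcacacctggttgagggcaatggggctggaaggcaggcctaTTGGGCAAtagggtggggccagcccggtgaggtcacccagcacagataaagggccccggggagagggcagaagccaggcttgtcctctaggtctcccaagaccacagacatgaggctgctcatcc
Mpo, chr11:87793534-87793833, plus strand: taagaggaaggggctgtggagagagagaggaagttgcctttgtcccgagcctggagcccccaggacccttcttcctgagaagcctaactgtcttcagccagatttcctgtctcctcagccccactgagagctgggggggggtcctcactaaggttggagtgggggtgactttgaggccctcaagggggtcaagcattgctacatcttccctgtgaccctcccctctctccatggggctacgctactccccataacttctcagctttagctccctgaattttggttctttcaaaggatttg

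The Ngp window held 2 matches, TTGCCCAA and TTGGGCAA, and the Ltf window held 1, TTGGGCAA. The Camp and Mpo windows held none. Of the windows not printed, those of Lcn2 and Mmp8 each held 1 match, TTGCTCAA, and those of Elane, Prtn3 and Ctsg held none. In all, 4 of 5 secondary and tertiary windows and 0 of 4 primary windows held a match, beside 10.8% of the 32851 windows of this length in the table. A match is a description of letters and says nothing of binding. Ngp, Camp and Ltf all lie on chromosome 9, and so does Mmp8, for which the sets overlapped. RefSeq's order has 8 protein-coding genes between Camp and Ngp and 20 between Ngp and Ltf. Of the genes next to Ngp, Camp and Ltf, Ptpn23 beside Ngp had 4, 0 and 0 counts in B, against 6145, 0 and 8 in A. Nme6 beside Camp had 0, 1368 and 948 counts in B, against 4, 0 and 0 in A. Ccrl2 beside Ltf had 67, 3321 and 1499 counts in B, against 36, 38 and 54 in A. On the other side, Klhl18 beside Ngp had 0, 56 and 1077 counts in B, against 0, 4 and 718 in A. Cdc25a beside Camp had 0, 0 and 76 counts in B, against 0, 0 and 0 in A. Rtp3 beside Ltf had 0 counts in every library. Of these neighbours, Ccrl2 alone separated the sets.

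All 4 primary granule genes failed the filter on low counts, so none entered the test over all genes. Mpo encodes myeloperoxidase, which makes hypochlorous acid from hydrogen peroxide. It had 8, 0 and 679 counts in B (0.161, 0 and 10.6 CPM), against 0, 4 and 0 counts in A (0, 0.0757 and 0 CPM). B replicate 3 held nearly all of them, and no difference between the sets was detectable (2-sided exact permutation p = 0.4, where the smallest p possible with 3 libraries a set is 0.1). Fitted without the filter, Mpo differed by 6.95 in log2 CPM (SE 4.51), with an adjusted p of 0.454 by edgeR.

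Elane encodes neutrophil elastase. It had 4 counts in B replicate 1 (0.0804 CPM) and 0 in the other 5 libraries (2-sided exact permutation p = 1). Prtn3, which encodes proteinase 3, and Ctsg, which encodes cathepsin G, had 0 counts in all 6 libraries. If each count stood for 1 independent fragment, a count of 0 would allow up to 3 counts. That is 0.0469 to 0.0603 CPM in B, against 0.0544 to 0.0650 CPM in A. These limits cover counting error only, and they would be higher if 1 fragment gave several counts. Counts of 4 (5211 values) were far more frequent than counts of 3 (819) or 5 (660). Smart-seq2, whose use was not settled here, has no molecular identifiers, so amplified copies would be counted as separate reads. The source of the counts of 4 was not tested.

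The genomic neighbours of the primary proteases were compared with them. Ctsg lies next to Mcpt8 on chromosome 14, with 0 protein-coding genes between them in RefSeq's order. Mcpt8 had 58346, 51559 and 30568 counts in B and 42, 36 and 59 in A, a fitted log2 value of 9.76 (SE 0.58) with an adjusted p of 0.0125 by edgeR, while Ctsg had none in any library. Elane and Prtn3 are neighbours on chromosome 10. Prss57, which encodes a further serine protease, known from human primary granules, and lies 5 protein-coding genes from Elane, had 1, 0 and 579 counts in B and 0, 0 and 0 in A. Like Mpo, it was seen above 1 CPM in B replicate 3 alone, at 9.05 CPM.

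**Figure D4:**
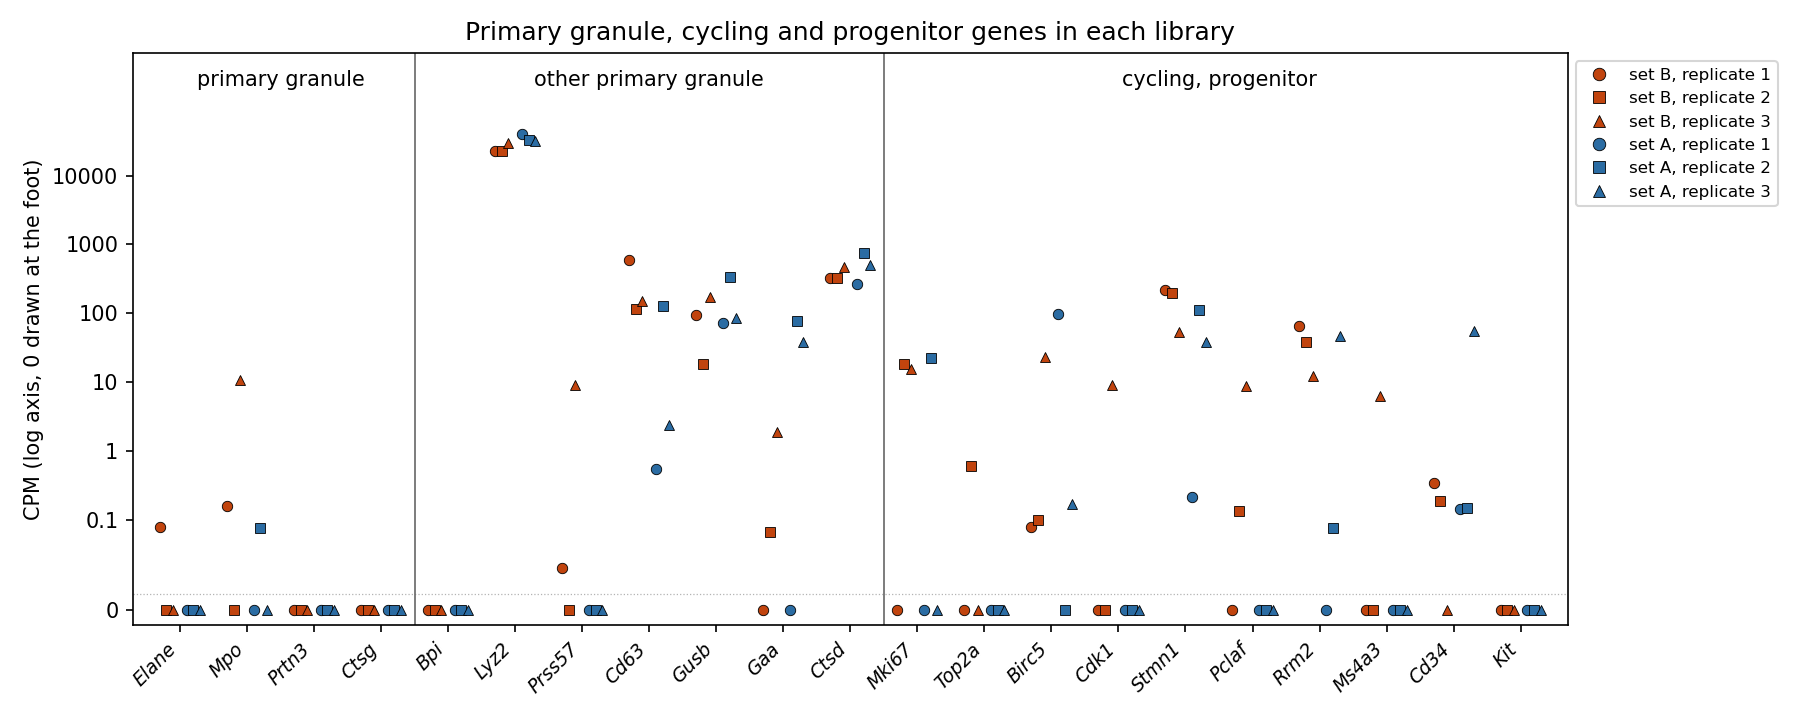
CPM (log axis, with 0 drawn at the foot) of the 4 primary granule genes, the 7 other listed primary granule genes and the 10 listed genes of cycling and progenitor cells, 1 point per library, set B left of set A. B replicate 3 alone lies above 1 CPM for Mpo, Prss57, Cdk1, Pclaf and Ms4a3, while it is the lowest B library for Stmn1 and Rrm2.

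The other primary granule genes gave no call: of 7 listed, 5 were tested and 0 passed in either direction, with a median fitted log2 difference of -0.58. Lyz2, which encodes lysozyme and is also abundant in monocytes, was at 22656, 22600.0 and 29746 CPM in B, against 39756, 32661 and 32015 CPM in A (log2 difference -0.58, SE 0.19, adjusted p = 0.523 by edgeR). Every B library lay below every A library for Lyz2, as for 3.91% of all tested genes. Bpi, which encodes a bactericidal protein of human primary granules, had 0 counts in all 6 libraries. Cd63, a membrane protein of human primary granules and of other secretory granules, was at 601, 116 and 153 CPM in B, against 0.544, 126 and 2.36 CPM in A. Ctsd was at 327, 325 and 468 CPM in B, against 267, 748 and 501 CPM in A. Gusb was at 93.9, 18.5 and 170 CPM in B, against 73.0, 341 and 85.0 CPM in A.

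Of 11 other secondary granule genes, 10 were tested and 0 passed, with 8 fitted values above 0, 2 below and a median of 0.69. Every B library lay above every A library for 5 of the 11, beside 10.2% of all tested genes. At an unadjusted p under 0.05 by edgeR, 3 were higher and 1 lower, beside 5.05% and 1.32% of all tested genes. Lrg1, a leucine-rich glycoprotein stored in granules of human neutrophils, was at 883, 915 and 670 CPM in B, against 158, 322 and 148 CPM in A (log2 difference 1.87, SE 0.37, adjusted p = 0.508 by edgeR). Hp, which encodes haptoglobin, was at 1283, 908 and 1383 CPM in B, against 174, 583 and 686 CPM in A. Chil3, a chitinase-like lectin of mouse myeloid cells, was at 712, 555 and 592 CPM in B, against 38.7, 1.02 and 71.6 CPM in A. In each of these 3 genes the sets did not overlap. Pglyrp1 (log2 difference 0.45, SE 0.25) and Tcn2 (0.78, SE 0.53) had smaller fitted values, and their sets did not overlap either. The subunits of cytochrome b558, the membrane part of the NADPH oxidase, did not share this: Cybb was at 570, 629 and 542 CPM in B, against 1026, 923 and 610.0 CPM in A, and the fitted log2 difference of Cyba was 0.08 (SE 0.29). Olfm4, a marker of a subset of neutrophils, had 0, 920 and 529 counts in B and 0 in all 3 A libraries.

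Of 7 genes listed as tertiary, 5 were tested and 0 passed, with a median of 1.59. Mmp9, which encodes the gelatinase that gives these granules their name, was at 243, 88.6 and 108 CPM in B, against 0.109, 75.9 and 165 CPM in A, so the sets overlapped. Arg2 had the largest fitted value of the 5, at 150.0, 122 and 65.9 CPM in B, against 0.218, 0 and 0.0867 CPM in A (log2 difference 9.92, SE 2.28, adjusted p = 0.508 by edgeR). Arg2 encodes a mitochondrial arginase and is no granule protein, although the list held it. Slc11a1, a metal transporter of human tertiary granules, was at 367, 292 and 167 CPM in B, against 330, 447 and 502 CPM in A. Mmp25 and Fcnb had 0 counts in all 6 libraries. For secretory vesicles, the storage compartment that forms last, 6 of 7 genes were tested, 0 passed and the median was 1.23.

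**Figure D5:**
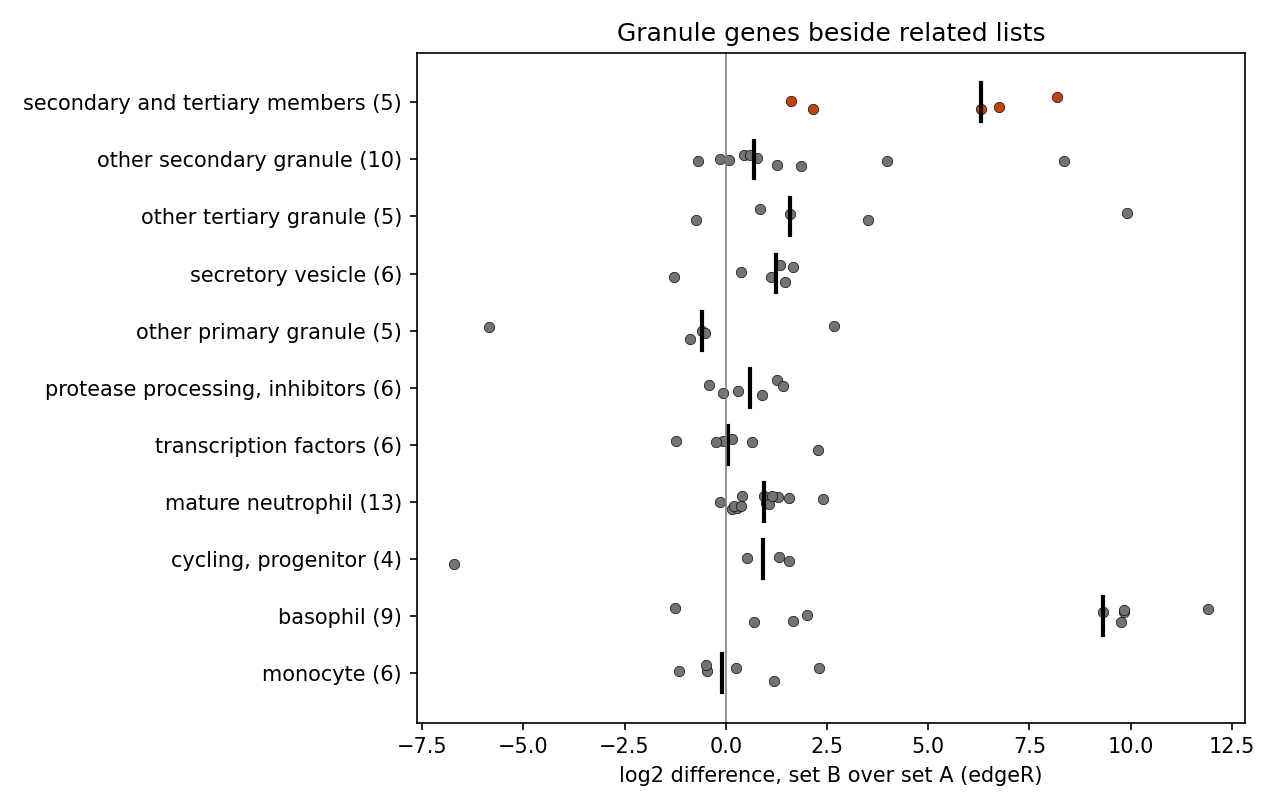
Fitted log2 difference of set B over set A by edgeR for each tested gene (points) and the median of each list (bars), with the number tested in brackets. The 5 secondary and tertiary granule genes described here have a median of 6.31, against 0.69 for the other secondary granule genes, 0.95 for mature neutrophil markers and 9.31 for basophil markers.

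Genes that process or restrain the proteases gave no call: of 7 listed, 6 were tested and 0 passed. Ctsc, the protease that activates elastase, proteinase 3 and cathepsin G, was at 269, 692 and 363 CPM in B, against 296, 105 and 248 CPM in A (log2 difference 0.90, SE 0.53, adjusted p = 1.00 by edgeR). It was present in all 6 libraries, while Elane, Prtn3 and Ctsg were at or near 0. Slpi, an inhibitor of elastase and cathepsin G, was at 2671, 1938 and 1391 CPM in B, against 342, 736 and 1069 CPM in A, with no overlap (log2 difference 1.41, SE 0.41, adjusted p = 0.508 by edgeR). Serpinb1a, an intracellular inhibitor of the same proteases, was at 239, 188 and 108 CPM in B, against 0.181, 172 and 39.6 CPM in A. Srgn, the core protein on which granule proteases are packed, was at 1883, 1509 and 1392 CPM in B, against 1946, 1852 and 2150 CPM in A.

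Of 9 transcription factors that act in granule gene expression, 6 were tested and 0 passed, with a median of 0.05. Cebpe, which encodes C/EBP-epsilon, was at 26.3, 0 and 33.2 CPM in B and at 0 in all 3 A libraries. Gfi1, a repressor needed for neutrophil maturation, was at 0, 3.50 and 0 CPM in B, against 0, 36.9 and 0 CPM in A. Cebpe, Gfi1 and Myb, which is described below, failed the filter. Cebpb and Spi1, which act broadly in myeloid cells, were present throughout, at 894 to 1194 CPM in B, against 891 to 1173 CPM in A, for Cebpb. Cebpd was at 196, 149 and 93.5 CPM in B, against 0.308, 29.5 and 58.5 CPM in A.

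Marker lists of whole cell types differed in direction, and only basophil markers held genes that passed. Of 14 mature neutrophil markers 13 were tested, 0 passed, 12 fitted values were above 0 and the median was 0.95. Every B library lay above every A library for 4 of the 14, beside 10.2% of all tested genes. Csf3r was among those that overlapped, at 462, 233 and 220 CPM in B, against 0.308, 198 and 264 CPM in A. Retnlg, a secreted resistin family protein, was at 1930, 1523 and 1660 CPM in B, against 422, 500.0 and 723 CPM in A (log2 difference 1.55, SE 0.22, adjusted p = 0.508 by edgeR), a smaller fitted value than that of Ngp, Camp or Ltf. Of 9 basophil markers all 9 were tested, 2 passed and the median was 9.31. Their summed level ranged over 1473 to 3195 CPM in B, against 39.7 to 387 CPM in A. Of 8 monocyte markers 6 were tested, 0 passed and the median was -0.10, with summed levels of 1650 to 3203 CPM in B, against 1814 to 2547 CPM in A. The T cell, erythroid and platelet lists ran lower in B, with 0 genes passing in each. Of 6 T cell markers 5 were tested with a median of -1.06, and their sum was 132 to 309 CPM in B, against 612 to 728 CPM in A. Of 5 erythroid markers 4 were tested with a median of -2.80, and their sum was 109 to 179 CPM in B, against 270 to 630 CPM in A. All 5 platelet markers were tested with a median of -0.75, and their sum was 519 to 816 CPM in B, against 859 to 1393 CPM in A. The summed levels of these 3 lists did not overlap between the sets, and neither did those of the mature neutrophil and basophil lists, which were higher in B. A sum can separate while most of its genes overlap, as in the mature neutrophil list. All 5 B cell markers were tested with a median of -0.004, and their sum was 3555 to 4750 CPM in B, against 2818 to 4652 CPM in A. Of 5 mast cell markers 1 was tested, Cma1, at -1.08. The median was -0.40 for 6 cytotoxic cell markers and -0.94 for the 2 tested eosinophil markers. Eosinophil peroxidase (Epx) and major basic protein (Prg2), defining proteins of eosinophil granules, had 0 counts in all 6 libraries. The part of these cell types in the granule gene differences was not tested.

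The genes with the most similar course over the 6 libraries were sought by the root mean square distance between centred log2(CPM + 1) values, among 7798 other genes with a mean of at least 10 CPM. Nearest to the mean course of the secondary and tertiary class were Cpsf2 (distance 0.39), Eftud2 (0.39), Tmem254c (0.40), Ttf1 (0.43) and Igkv3-5 (0.44). Cpsf2, a subunit of the complex that cleaves pre-mRNA at its 3′ end, was at 39.3, 10.1 and 33.7 CPM in B and at 0 in all 3 A libraries. None of these 5 passed by edgeR. The mean course of the primary class varied little, since Prtn3 and Ctsg were at 0 throughout. It stood at 0.719 in B replicate 3, where Mpo was seen, and from -0.165 to -0.0837 in the other libraries. Its nearest genes were Fkbp1a (0.07), Ftl1-ps1 (0.13), Gngt2 (0.15), Tyrobp (0.15) and Cdk2ap2 (0.16), each highest in B replicate 3. Fkbp1a was at 85.8, 75.1 and 133 CPM in B, against 79.8, 83.2 and 80.7 CPM in A.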

How the data were processed

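Counts per Ensembl gene were analysed as the authors deposited them, as raw whole numbers with 1 column per library. The submitters' processing notes list HISAT2 2.2.1, cutadapt 1.9 and DESeq2 without saying what each was used for. Per the labels' protocols the libraries were made with Smart-seq2, while the sample descriptions name 10x Genomics. For the counting program, genome build, annotation and use of strand: not given in the sources used here. Counts of 4 (5211 values) were far more frequent than counts of 3 (819) or 5 (660), so the number of fragments behind a count is not known. Symbols matched 55141 of 55401 identifiers. CPM values were computed from the column totals. Merged exon lengths came from GENCODE M21.

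Set B was compared with set A over all 6 libraries by edgeR 4.0.16 in R 4.3.3 (filterByExpr, TMM, glmQLFit with robust=TRUE, glmQLFTest, Benjamini-Hochberg over 9196 genes, threshold 0.05). SE is the absolute log2 fold change over the square root of F. Genes under the filter were compared by exact permutation tests of CPM in scipy 1.17.1. The script was tested on simulated counts. The fit was repeated with each library left out, with a replicate block, with counts divided by 4, with RLE scaling, with no scaling beyond library size, without the filter, with a filter that needed 10 counts throughout B or throughout A plus a mean of 10 CPM, with limma-voom and sample quality weights (limma 3.58.1) and with DESeq2 1.42.0. The genes, lists and rules were chosen with earlier results of these data known. Named genes were the members, up to 4 abundant genes a list, genes past the threshold and the nearest courses. Others were chosen after their values were seen.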

Additional observations from a re-analysis of the deposited data

How the results depend on the processing

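The number of genes called in B against A was 2 by edgeR, 595 by DESeq2 and 202 by limma-voom with sample quality weights, and it ran from 0 to 1 with 1 library left out, where only the omission of B replicate 3 left a call. Libraries with the same replicate number did not deviate together (correlations 0.028, -0.024 and 0.026), which cannot exclude a shared animal or pool. With the number as a replicate block edgeR called 0 genes (345 at an unadjusted p under 0.05). DESeq2 gave Ngp 6.13, Camp 6.66 and Ltf 8.17 on the log2 scale, each past its threshold, and gave no adjusted p for 882 genes, Lcn2 among them. Over the 68 other fits of the 5 secondary and tertiary genes, all 68 differences were above 0 and 65 stayed on the same side of the threshold. With 1 library left out the lowest and highest were 4.68 and 6.75 for Ngp, 6.33 and 7.09 for Camp, 5.74 and 8.79 for Ltf, 1.05 and 8.08 for Lcn2, and 1.67 and 3.81 for Mmp8. With counts divided by 4 Ltf failed the filter. The log2 ratio of the summed primary genes ran from 2.26 (without B replicate 3) to 7.75 with 1 library left out, and it could not be computed without A replicate 2 or without Mpo, since A was then at 0. For the summed secondary and tertiary genes the ratio ran from 2.31 to 3.07 with 1 library left out and was 3.17 without Mmp8. RLE scaling put the median of all tested genes at -0.16 and library size alone put it at 0.05, against -0.06 by TMM. With 3 libraries a set, low genes are limited by library values near 0.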

Other observations

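The listed genes of cycling and progenitor cells had no common course over the libraries. A few were seen in B replicate 3 almost alone, as Mpo and Prss57 were, and these were chosen after their values were seen. Ms4a3, a membrane protein of granulocyte and monocyte progenitors, had 410 counts in B replicate 3 (6.41 CPM) and 0 in the other 5 libraries. Myb, a transcription factor of haematopoietic progenitors, had 311 counts there (4.86 CPM) and 0 elsewhere, but it came from the list of transcription factors and not from this list. Cdk1, the kinase that drives entry into mitosis, had 575 counts there (8.99 CPM) and 0 elsewhere, and Pclaf, a replication factor, had 556 there (8.69 CPM), 8 in B replicate 2 and 0 elsewhere. The rest of the cycling and progenitor list did not share this. Stmn1, a microtubule regulator of dividing cells, was at 219, 199 and 54.1 CPM in B, against 0.218, 113 and 38.9 CPM in A. Rrm2, a subunit of ribonucleotide reductase, was at 66.0, 38.0 and 12.1 CPM in B, against 0, 0.0757 and 46.3 CPM in A, so for both genes B replicate 3 was the lowest B library. Birc5, which acts in chromosome segregation, was at 0.0804, 0.101 and 23.4 CPM in B, against 97.1, 0 and 0.173 CPM in A. Mki67, a marker of dividing cells, was at 0, 18.4 and 15.7 CPM in B, against 0, 22.5 and 0 CPM in A. Top2a was seen in B replicate 2 alone, at 0.609 CPM. Cd34, a surface protein of progenitors, was at 0 in B replicate 3 and highest in A replicate 3, at 54.6 CPM. Kit, the receptor of early progenitors, had 0 counts in all 6 libraries.

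Genes seen in 1 library alone were common. In B replicate 3, 822 of the 9178 genes at 4 CPM or more (8.96%) were under 0.2 CPM in each other library, and 6 of the listed genes were among them. The share was 5.73% and 6.17% in B replicates 1 and 2, and 3.29%, 4.67% and 6.01% in A replicates 1, 2 and 3. B replicate 3 also had the most detected genes, 14066, against 11141 and 12176 in the other B libraries and 9242 to 11281 in A. The part of detection in the Mpo value was not tested.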
